A study of Homo sapiens with 6 samples.

Results

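The lncRNAs described are 10 well-known long non-coding RNAs, found by their symbols among the 60676 genes of the count table. They are MALAT1, NEAT1, MEG3, KCNQ1OT1 and MIAT, generally described as nuclear, NORAD, OIP5-AS1 and CYTOR, generally described as cytoplasmic, and TUG1 and PVT1, known from both compartments. All 10 had at least 10 counts in total and were among the 12565 genes tested. The classes came from general knowledge of these RNAs, since no fractionated library was analysed.

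The human neuroblastoma line SK-N-BE was differentiated with 10 µM retinoic acid and sampled at day 1.5. A native extract, lysed with a mild detergent and cleared by centrifugation, was incubated with biotinylated antisense probes against CyCoNP, the cytoplasmic lncRNA annotated as LINC02381, or against LacZ, a bacterial gene that served as the control. RNA was read on a Nanopore flow cell in 6 libraries. The extract before the pull-down (input), the pull-down with CyCoNP probes (CyCoNP PD) and that with LacZ probes (LacZ PD) gave 2 libraries each. Every group shares the line, the retinoic acid and the day, and the groups differ by the probes. Dextran sulfate went into the pull-downs and not into the input, and the pull-down libraries were pooled from more PCR reactions, so these differences and the pull-down cannot be told apart.

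LncRNAs are transcribed and mostly spliced and polyadenylated like mRNAs but do not act through a long encoded protein. Nuclear ones organise chromatin, speckles and other bodies, while cytoplasmic ones mostly act on mRNAs, microRNAs and RNA-binding proteins. In a pull-down with probes against another RNA, such lncRNAs can serve as a measure of unrelated RNA that the beads carry over. A clearing spin with mild detergent is commonly used to leave nuclei behind, and how much nuclear RNA the extract held was not measured apart from these counts.

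Exact complementarity between the CyCoNP probes and these lncRNAs was short. The 22 CyCoNP probes of 20 bases each matched LINC02381 over their full length, and the longest exact complementary stretch in any of the 10 lncRNAs was 13 bases. The sites below are the longest in 5 of the members, each with a single site of that length, and the full match of probe 2 to LINC02381 stands first for comparison. Each is 5′ to 3′ on the strand of the RNA in the GRCh38 transcripts of GENCODE v44, with the complementary bases in capitals.

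LINC02381 and probe 2, chr12:54126277-54126296, plus strand, exon 1: GACCTCTCCCTCCAGTTCCC

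KCNQ1OT1 and probe 6, chr11:2624501-2624513, minus strand, exon 1: GAAATCTAGATGAtctttag

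MALAT1 and probe 1, chr11:65506891-65506902, plus strand, exon 1: TTCACCCTCCCTgtagctgg

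MEG3 and probe 11, chr14:100834861-100834871, plus strand, exon 1: gtgAGCAGCTTCCGacccct

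OIP5-AS1 and probe 2, chr15:41320264-41320274, plus strand, exon 6: tcCCTCTCCCTCCtctcccc

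TUG1 and probe 5, chr22:30978308-30978318, plus strand, exon 3: acAGGACAAACTTatctctc

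The 13 bases of KCNQ1OT1 were matched or exceeded by 2.43% of the 12528 tested genes with GENCODE transcripts, and its longest transcript spans 91667 bases, which gives more places to match. The 12 bases of MALAT1 were reached by 10.1% of those genes, as were the 12 of PVT1. NEAT1, MEG3, OIP5-AS1 and TUG1 held 11 bases, as 32.9% of genes did, and MIAT, NORAD and CYTOR held 10, as 70.6% did. A match describes the letters and is not a binding site.

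Reverse transcription in this library kit starts at runs of A, normally the poly(A) tail. MALAT1 is the textbook exception, since its mature 3′ end is a folded structure with no poly(A) tail. The longest run of A inside a transcript is shown in capitals for MALAT1, for the 4 members with the longest runs and for NORAD with the shortest, plus flanking bases where the run leaves room, from the same annotation.

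MALAT1, chr11:65506098-65506110, plus strand: tctagcttAAAAAAAAAAAAAgcaaaaga

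NEAT1, chr11:65440843-65440864, plus strand: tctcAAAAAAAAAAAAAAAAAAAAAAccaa

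KCNQ1OT1, chr11:2610717-2610745, minus strand: AAAAAAAAAAAAAAAAAAAAAAAAAAAAA

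OIP5-AS1, chr15:41301971-41301999, plus strand: AAAAAAAAAAAAAAAAAAAAAAAAAAAAA

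MIAT, chr22:26670603-26670626, plus strand: cttAAAAAAAAAAAAAAAAAAAAAAAAgca

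NORAD, chr20:36047011-36047020, minus strand: gctccgtttcAAAAAAAAAAgtgcacaatg

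The MALAT1 run was 13 bases long and lay 1963 bases before the annotated 3′ end, and 23.0% of genes held a run at least as long. KCNQ1OT1, a nuclear RNA, and OIP5-AS1, a cytoplasmic one, held the longest at 29 bases each, as 0.870% of genes did. MIAT held 24 bases (2.91% of genes at least as long), NEAT1 22 (4.38%) and TUG1 18 (9.69%). NORAD held 10, the shortest longest run of the 10 lncRNAs, and 35.5% of genes reached that. Counts per gene do not show where a read began.

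The depth set what could be seen of each lncRNA. Total counts were 717905 and 791970 for replicates 1 and 2 of input, 1512148 and 514882 for those of CyCoNP PD, and 18870 and 140115 for those of LacZ PD. Levels are given as CPM, the share of a library's counts scaled to a common total. A count of 0 allows up to 3 counts, which correspond to 159 CPM in LacZ PD 1 and 21.4 CPM in LacZ PD 2, against 1.98 to 5.83 CPM in the other 4 libraries. Of the 10 lncRNAs, 6 had 0 counts in LacZ PD 1 and 2 had 0 counts in LacZ PD 2. The target LINC02381 rose from 20 and 39 counts in input to 11687 and 3507 in CyCoNP PD, while LacZ PD held 1 and 20. Its log2 fold change in CyCoNP PD against input was 7.59 (SE 0.96, edgeR quasi-likelihood test, Benjamini-Hochberg adjusted p = 0.0137). It was called in 11 of 14 alternative fits, and not with only the 2 groups compared, without LacZ PD replicate 1 or without LacZ PD replicate 2, where its adjusted p in edgeR was 0.271, 0.239 and 0.268 and no gene was called. The 11 neuroblastoma markers were all detected, summing to between 2632 and 3953 CPM, and immune markers summed to at most 5.83 CPM.

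MALAT1 (ENSG00000251562, chr11:65497640-65508073, plus strand), which resides in nuclear speckles, had levels that grouped by replicate number, whichever the pull-down. It had 912 and 4933 counts in input replicates 1 and 2, or 1270 and 6229 CPM. CyCoNP PD gave 2405 and 3331 counts, or 1590 and 6469 CPM. LacZ PD gave 25 and 1136 counts, or 1325 and 8108 CPM. The replicate 1 libraries of the 3 groups thus lay between 1270 and 1590 CPM and the replicate 2 libraries between 6229 and 8108 CPM, while the ranges of the 3 groups overlapped. MALAT1 also took most of the counts of the 10 lncRNAs, 67.8%, 71.7% and 73.5% in the replicate 1 libraries of input, CyCoNP PD and LacZ PD, and 86.6%, 88.0% and 90.9% in the replicate 2 libraries. These are shares of counts and are not corrected for length.

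NEAT1 (ENSG00000245532, chr11:65422774-65445540, plus strand), the scaffold of paraspeckles, had 39 and 71 counts in input, or 54.3 and 89.6 CPM, and 48 and 56 in CyCoNP PD, or 31.7 and 109 CPM. It had 0 and 10 counts in LacZ PD, where the 10 counts correspond to 71.4 CPM and the 0 allows up to 159 CPM. Replicate 2 was higher than replicate 1 in input and in CyCoNP PD, whose ranges overlapped. MEG3 (ENSG00000214548, chr14:100779410-100861031, plus strand), an imprinted RNA expressed from the maternal chromosome, had 129 and 267 counts in input, or 180 and 337 CPM. In CyCoNP PD it had 440 and 256 counts, or 291 and 497 CPM, and in LacZ PD 4 and 75, or 212 and 535 CPM. Replicate 2 was the higher library of MEG3 in every group, and both pull-downs overlapped the input.

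The other nuclear lncRNAs had few counts. KCNQ1OT1 (ENSG00000269821, chr11:2597308-2700003, minus strand), an imprinted antisense RNA that silences neighbouring genes, had 1 and 7 counts in input, 6 and 8 in CyCoNP PD and 0 in both LacZ PD libraries. KCNQ1, the protein-coding gene on the opposite strand, had 0 counts in every library. MIAT (ENSG00000225783, chr22:26646411-26676475, plus strand), a nuclear RNA known to bind splicing factors, had 6 and 30 counts in input, or 8.36 and 37.9 CPM, and 20 and 14 in CyCoNP PD, or 13.2 and 27.2 CPM. It had 0 and 1 counts in LacZ PD. For both RNAs the LacZ PD values sat at or under the 3-count limit.

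Among the cytoplasmic lncRNAs, NORAD (ENSG00000260032, chr20:36045618-36051018, minus strand), which sequesters PUMILIO proteins, went the other way between replicates. It had 70 and 21 counts in input, or 97.5 and 26.5 CPM, and 72 and 10 in CyCoNP PD, or 47.6 and 19.4 CPM. LacZ PD held 0 and 4 counts, and its 28.5 CPM in replicate 2 lies below what a count of 0 allows in replicate 1, so no direction can be read there. Replicate 1 was the higher library of NORAD in input and in CyCoNP PD.

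OIP5-AS1 (ENSG00000247556, chr15:41283958-41322392, plus strand), also known as cyrano, which controls the level of a microRNA, had 119 and 289 counts in input, or 166 and 365 CPM. It had 194 and 80 counts in CyCoNP PD, or 128 and 155 CPM, both below the lower input library. LacZ PD held 4 and 16 counts, or 212 and 114 CPM, which overlapped the input. OIP5, the gene it overlaps in part, had at most 16 counts in a library. CYTOR (ENSG00000222041, chr2:87454781-87636740, plus strand), a lncRNA linked to cell growth, had 11 and 18 counts in input, or 15.3 and 22.7 CPM, and 37 and 15 in CyCoNP PD, or 24.5 and 29.1 CPM. CYTOR had 0 and 7 counts in LacZ PD. Its counts are uncertain, because MIR4435-2HG is a near-identical copy and itself had 15 and 23 counts in the inputs, then 23 and 15 in CyCoNP PD.

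TUG1 (ENSG00000253352, chr22:30969245-30979395, plus strand), which is typed as protein coding in GENCODE v44, had 48 and 41 counts in input, or 66.9 and 51.8 CPM. In CyCoNP PD it had 55 and 7 counts, or 36.4 and 13.6 CPM, both below either input library. LacZ PD held 1 and 0 counts. PVT1 (ENSG00000249859, on chromosome 8), the neighbour of MYC, had 10 and 20 counts in input, or 13.9 and 25.3 CPM, and 75 and 8 in CyCoNP PD, or 49.6 and 15.5 CPM. Of PVT1 LacZ PD held 0 and 1 counts, and of the CyCoNP PD libraries replicate 1 lay above the input range and replicate 2 inside it.

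**Figure D1:**
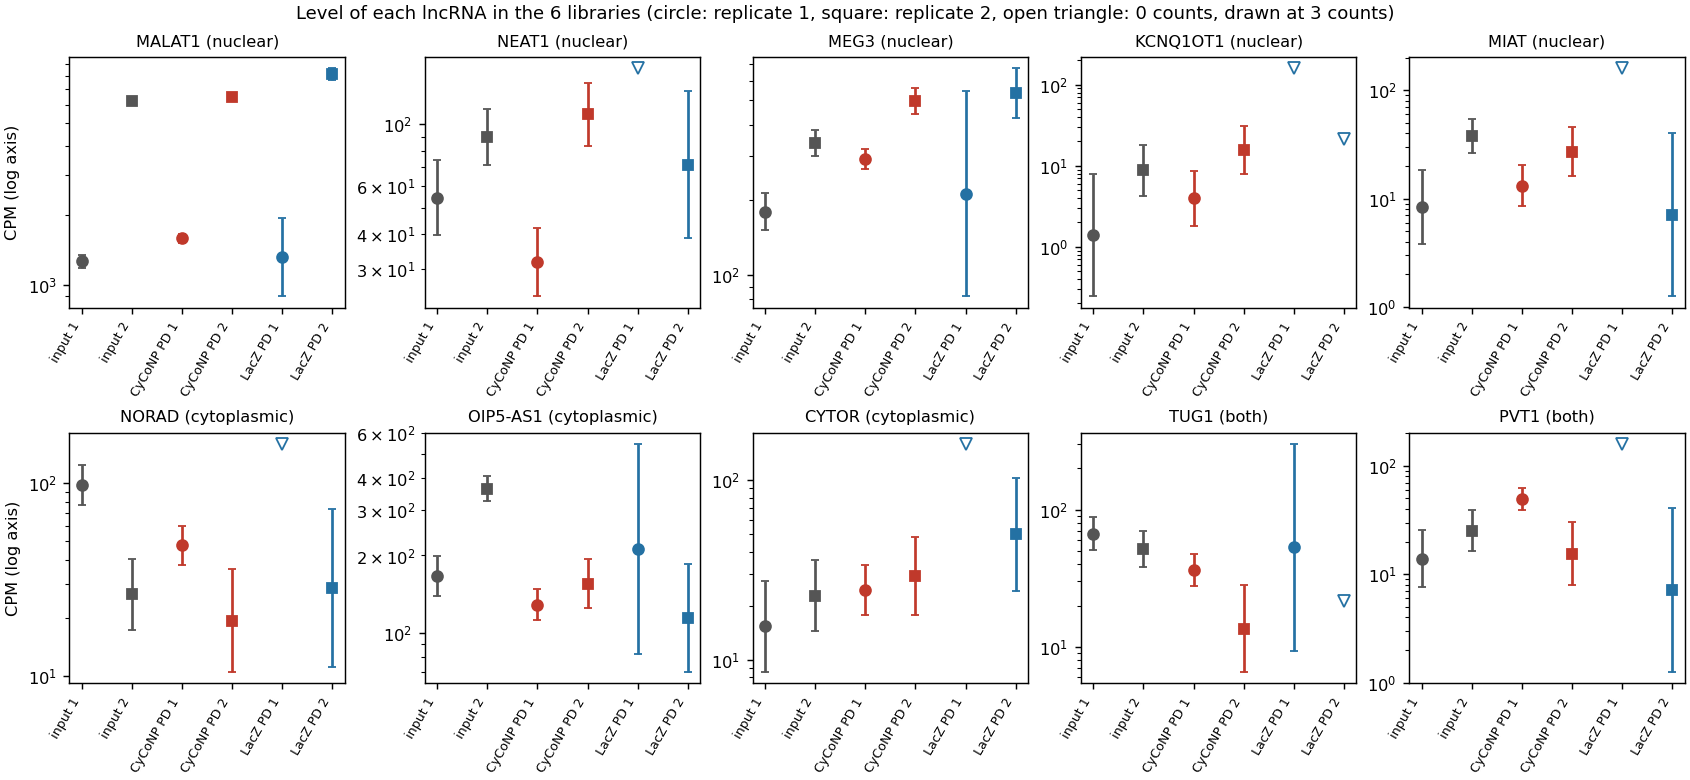
Level of each lncRNA in CPM (log axis, a separate scale in each panel) in the 6 libraries, with circles for replicate 1, squares for replicate 2, 95% Wilson intervals for counting error and open triangles where the count was 0, drawn at the 3-count limit. MALAT1 lies between 1270 and 1590 CPM in the replicate 1 libraries and between 6229 and 8108 CPM in the replicate 2 libraries of all 3 groups, and the wide bars of LacZ PD 1 follow from its 18870 counts.

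The intervals and the 3-count limit describe counting error alone, because amplified reads carried no molecular identifiers and are not independent molecules. In bulk RNA, fewer cells and less RNA per cell cannot be told apart.

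The comparison of CyCoNP PD with input asks whether the probes against CyCoNP recovered any of these lncRNAs beyond their level in the extract. None of the 10 was called, where a call needed an adjusted p under 0.05 together with a log2 fold change beyond 1 in either direction. The background was 0.127% of the 12565 tested genes, with edgeR's quasi-likelihood test on all 6 libraries. At an unadjusted p under 0.05 the count over the 10 was 0 as well, against 678 of all tested genes. DESeq2 called 0 of the 10 (background 0.573%) and gave no adjusted p for KCNQ1OT1, MIAT and PVT1. With the replicate number as a block the count was also 0 (background 2.26%). There 1 of the 10, TUG1, had an unadjusted p under 0.05 in edgeR, against 1332 of all 12565 tested genes.

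The fold changes fell on both sides of 0, with 5 above and 5 below. MALAT1 had a log2 fold change of 0.08 (95% interval -2.14 to 2.30) and NEAT1 of -0.04 (-1.69 to 1.61). MEG3 stood at 0.63 (-0.88 to 2.14), KCNQ1OT1 at 0.79 (-1.90 to 3.48) and MIAT at -0.24 (-2.03 to 1.55). These intervals, from the fit without the block, leave room for changes of several-fold in either direction, so that no difference was detectable in these libraries rather than shown to be absent. With the block the intervals were narrower and still included 0. MALAT1 then stood at 0.29 (-1.03 to 1.60), NEAT1 at -0.18 (-1.19 to 0.83) and MEG3 at 0.71 (-0.34 to 1.76). KCNQ1OT1 stood at 1.01 (-1.14 to 3.15) and MIAT at 0.06 (-1.20 to 1.32).

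NORAD had a log2 fold change of -0.71 (-2.35 to 0.93), OIP5-AS1 of -0.88 (-2.23 to 0.47), which ran from -1.40 without input replicate 1 to -0.07 without input replicate 2, and CYTOR of 0.53 (-1.07 to 2.12). TUG1 stood at -1.10 (-2.73 to 0.54) and PVT1 at 0.83 (-0.79 to 2.46). The adjusted p of each of the 10 was 0.9996 with edgeR's quasi-likelihood test and Benjamini-Hochberg adjustment. With the block TUG1 had a log2 fold change of -1.24 (-2.41 to -0.07) and an adjusted p of 0.414 (edgeR).

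Within the same replicate number, MEG3, KCNQ1OT1 and CYTOR were higher in CyCoNP PD than in input in both replicates, and NORAD, OIP5-AS1 and TUG1 were lower in both. On the log2 CPM scale after TMM normalization with a prior count of 2, MEG3 differed by 0.88 and 0.49 in replicates 1 and 2, OIP5-AS1 by -0.17 and -1.28, and TUG1 by -0.64 and -1.77. MALAT1, NEAT1, MIAT and PVT1 had opposite signs in the 2 replicates. They stood at 0.52 and -0.01, at -0.53 and 0.21, at 0.65 and -0.50, and at 1.79 and -0.66. The second value of MALAT1 was next to 0, and by CPM without TMM it was higher in CyCoNP PD in both replicates. KCNQ1OT1 rests on 7 counts in input and 8 in CyCoNP PD in replicate 2. In CPM, the 2 groups did not overlap for 3 of the 10, CYTOR being higher in CyCoNP PD and OIP5-AS1 and TUG1 lower, against 36.3% of all tested genes. A share of 3 in 10 is close to that background.

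LacZ PD against input gives the same lncRNAs in the control pull-down, and it shares the input with the comparison above. No lncRNA of the 10 was called with edgeR (background 0% of genes), with the block (0.923%) or with DESeq2 (0.43%), which gave no adjusted p for 7 of the 10. Without the block, 1 of the 10 had an unadjusted p under 0.05 in edgeR, against 882 of all tested genes. With the block 2 of the 10 did, against 1084 of all tested genes. These were OIP5-AS1 at -1.40 (-2.67 to -0.13, adjusted p = 0.485, edgeR) and TUG1 at -3.21 (-5.61 to -0.80, adjusted p = 0.273, edgeR). In the fit without the block, MALAT1 had a log2 fold change of 0.03 (-2.20 to 2.25), MEG3 of 0.25 (-1.30 to 1.80) and CYTOR of 0.71 (-1.23 to 2.66). All 3 lay above the median of all tested genes, which was -0.68, so relative to that median they stood at 0.71, 0.93 and 1.40. That median depends on the fit. It was -0.36 with edgeR's filterByExpr in place of the count minimum, -0.34 with library size alone and -0.35 in DESeq2. CYTOR rests on 0 and 7 counts in LacZ PD. Without LacZ PD replicate 2 it stood at -6.75, which is set by 0 counts and is no bound.

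The remaining fitted values were below 0. NEAT1 stood at -0.74, OIP5-AS1 at -1.37 (-2.87 to 0.14) and NORAD at -1.65. MIAT had -2.22, PVT1 -1.95 and TUG1 -3.28 (-6.16 to -0.39), and these 3 had a single count over both LacZ PD libraries. TUG1 had an unadjusted p of 0.0290 and an adjusted p of 0.666 in edgeR's quasi-likelihood test. No fold is given for KCNQ1OT1, whose 0 counts in LacZ PD allow more CPM than the input held. For MIAT and PVT1, too, the limit of 159 CPM in LacZ PD 1 lies above both inputs, so no lower level can be read from these counts. With each library left out TUG1 ranged from -8.41 to -1.31, MIAT from -7.06 to -0.60 and PVT1 from -6.80 to -1.32, where the lowest values are set by 0 counts and are no bounds.

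**Figure D2:**
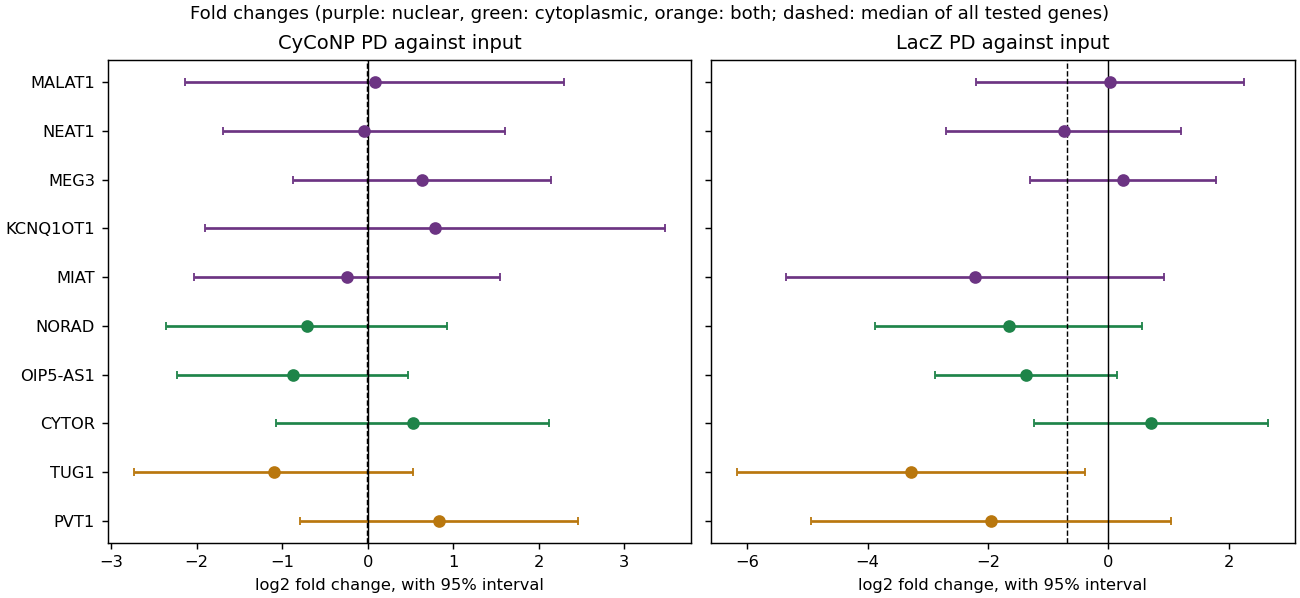
Log2 fold change of each lncRNA with its 95% interval from the edgeR fit, for CyCoNP PD against input (left) and LacZ PD against input (right), with the median of all tested genes as a dashed line. In the left panel all 10 intervals include 0, and in the right panel every interval but that of TUG1 does (KCNQ1OT1 is not drawn there because LacZ PD held 0 counts).

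The direct comparison of the pull-downs asks what the CyCoNP probes recovered beyond the LacZ probes. With edgeR 0 of the 10 were called (background 0%), with the block 0 (background 0.772%) and with DESeq2 0 (background 0.302%, with no adjusted p for 6 of the 10). At an unadjusted p under 0.05 edgeR also counted 0 of the 10, against 653 of all tested genes. The target itself, at a log2 fold change of 6.39, was not called here (adjusted p = 0.0785, edgeR), while it was called with the block and with DESeq2. The median log2 fold change of all tested genes was 0.64. MALAT1 stood at 0.06 (-2.17 to 2.28), MEG3 at 0.38 and OIP5-AS1 at 0.49, each below that median, while NEAT1 at 0.70 was next to it. NORAD stood at 0.94, MIAT at 1.97 and TUG1 at 2.18, and CYTOR at -0.19 was the 1 member below 0. The place against the median depends on the fit. In DESeq2 the median was 0.23, with MALAT1 at -0.09 below it, MEG3 at 0.23 next to it, and OIP5-AS1 at 0.34 and NEAT1 at 0.66 above it. MALAT1 changed sign with other scalings, and MEG3 and OIP5-AS1 did so with library size alone. PVT1 had the smallest p of the 10, with a log2 fold change of 2.78 (-0.08 to 5.63), an unadjusted p of 0.0555 and an adjusted p of 0.871 in edgeR's quasi-likelihood test. It rests on 83 counts in CyCoNP PD, 75 of them in replicate 1, against 1 count in LacZ PD.

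The nuclear and cytoplasmic lncRNAs were then set against each other. In CyCoNP PD against input the 5 nuclear lncRNAs had a median log2 fold change of 0.08 and the 3 cytoplasmic ones of -0.71, against -0.01 for all tested genes and 0.19 for the 847 lncRNA genes. TUG1 and PVT1 had a median of -0.13. The nuclear minus cytoplasmic difference of these fold change medians was 0.80. Another measure is the nuclear minus cytoplasmic median of log2 CPM in a single library. Its pooled SD between replicates was 1.40, which includes any shift shared by a replicate number. From input to CyCoNP PD this single-library measure changed by 0.26 within replicate 1 and by 0.14 within replicate 2. Medians of levels and medians of fold changes can rest on different members, so these values cannot be set directly against the 0.80. The difference of fold change medians was -0.62 without input replicate 1 and -0.53 without CyCoNP PD replicate 2. These fits set libraries of unlike replicate numbers against each other. With 2 libraries against 2 no exact permutation test can pass the threshold, and none was run.

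In LacZ PD against input the medians were -0.74 for the nuclear and -1.37 for the cytoplasmic lncRNAs, against -0.68 for all tested genes. With KCNQ1OT1 left out, the nuclear median was -0.36. The nuclear minus cytoplasmic difference ran from -0.55 without input replicate 1 to 1.82 without LacZ PD replicate 2. The 1.82 rests on LacZ PD 1 alone, where 6 of the 10 lncRNAs had 0 counts, and is no bound. In CyCoNP PD against LacZ PD the medians were 0.70 and 0.49, and 0.54 for the nuclear lncRNAs without KCNQ1OT1. The 3 comparisons share libraries and are given side by side.

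In CyCoNP PD against input the nuclear median was the value of MALAT1 and the cytoplasmic median that of NORAD. The class sums are weighted by counts and are a separate measure, which does not show which members set the medians. The 3 cytoplasmic lncRNAs summed to 279 and 414 CPM in input, to 200 and 204 in CyCoNP PD, and to 212 and 193 in LacZ PD, where LacZ PD 1 rests on 4 counts (95% Wilson interval 82.4 to 545 CPM). OIP5-AS1 gave most of these counts. Without it the sums were 113 and 49.2 CPM in input, 72.1 and 48.6 with the CyCoNP probes, and 0 and 78.5 with the LacZ probes, and they overlapped. The 4 nuclear lncRNAs other than MALAT1 summed to 244 and 474 CPM in input, 340 and 649 with the CyCoNP probes, and 212 and 614 with the LacZ probes. The cytoplasmic sums of CyCoNP PD lay below both inputs with OIP5-AS1 and overlapped them without it, the interval of LacZ PD 1 spans both inputs, and the nuclear sums overlapped.

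The counts of the 4 nuclear lncRNAs stood to those of the cytoplasmic ones at ratios of 0.875 and 1.14 in input, 1.70 and 3.18 with the CyCoNP probes, and 1.00 and 3.19 with the LacZ probes. MEG3 gave most of these nuclear counts. With MEG3 left out as well, the ratios were 0.23 and 0.33 in input, 0.24 and 0.74 with the CyCoNP probes, and 0 and 0.41 with the LacZ probes. Input and CyCoNP PD then overlapped.

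**Figure D3:**
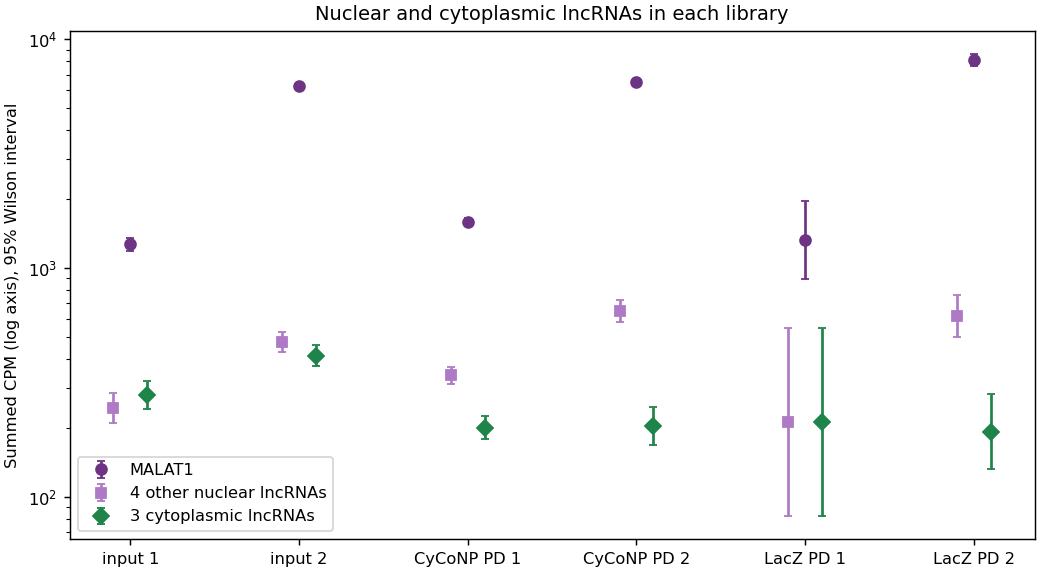
Summed CPM (log axis) of MALAT1, of the 4 other nuclear lncRNAs and of the 3 cytoplasmic lncRNAs in each library, with 95% Wilson intervals for counting error. The cytoplasmic sum is 279 and 414 CPM in input and 193 to 212 CPM in the pull-downs, while MALAT1 is higher in the replicate 2 library of each group.

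Since MALAT1 followed the replicate number, replicate 2 was compared with replicate 1 across the groups, in a fit with group and replicate number that was chosen after these values were seen. In CPM, MALAT1 was 4.90 times as high in replicate 2 as in replicate 1 in input, 4.07 times in CyCoNP PD and 6.12 times in LacZ PD. The fitted log2 fold change was 2.56 (SE 0.59, 95% interval 1.40 to 3.72, adjusted p = 0.00068, edgeR quasi-likelihood test with Benjamini-Hochberg adjustment), higher in 3 of 3 pairs. DESeq2 gave 2.58 and called it as well. By the paper's methods, the input was set aside from the total extract before probes were added. The labels do not say whether libraries of a replicate number share 1 extract. If they do, the 3 pairs are not independent and set 1 extract against 1 other. Intervals and p of this fit then describe the spread between libraries and not between cultures. MALAT1 was the 1 member called of the 10, against 5.27% of all tested genes called in either direction with edgeR, 0.812% called higher in replicate 2, and 2.19% called in either direction with DESeq2.

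The MALAT1 call rests on several libraries. The adjusted p in edgeR was 0.926 without input replicate 1, 0.718 without input replicate 2 and 0.0664 without LacZ PD replicate 1, and between 9.1e-05 and 0.0395 with each other library left out. The log2 fold change stayed between 2.21 and 2.95 in these 6 fits.

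The other nuclear lncRNAs had values of the same sign and were not called. NEAT1 had a fitted log2 fold change of 1.41 (0.43 to 2.39, adjusted p = 0.0768, edgeR), MIAT of 1.60 (0.30 to 2.90, 0.168), MEG3 of 1.13 (0.21 to 2.06, 0.174) and KCNQ1OT1 of 2.12 (-0.03 to 4.27, 0.344). With edgeR's filterByExpr in place of the count minimum, NEAT1 was called too.

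Within groups, the CPM ratio of replicate 2 to replicate 1 was 1.65 in input and 3.43 in CyCoNP PD for NEAT1, 1.88 and 1.71 for MEG3, 4.53 and 2.06 for MIAT and 6.35 and 3.92 for KCNQ1OT1, the last on 1 to 8 counts. MEG3 also had a ratio of 2.53 in LacZ PD. All 5 nuclear lncRNAs were higher in replicate 2 in both input and CyCoNP PD, and 7 of the 10 lncRNAs were, against 24.4% of all tested genes. The direction was shared by lncRNA genes more widely. By the fitted log2 fold change 7 of the 10 were above 0, against 602 of the 847 lncRNA genes and 6057 of all 12565 tested genes. In LacZ PD, MALAT1 and MEG3 had counts in both libraries and were higher in replicate 2, while NEAT1, MIAT and KCNQ1OT1 had 0 counts in LacZ PD 1 and give no direction there.

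The remaining lncRNAs were mixed. NORAD was 3.68 times as high in replicate 1 as in replicate 2 in input and 2.45 times in CyCoNP PD, with a fitted log2 fold change of -1.29 (-2.39 to -0.18, adjusted p = 0.208, edgeR). OIP5-AS1 had 0.61 (-0.32 to 1.55) and CYTOR 0.62 (-0.56 to 1.79). TUG1 had -0.87 (-2.02 to 0.28), and PVT1 had -0.34 (-1.61 to 0.92) with CPM ratios of 1.81 in input and 0.313 in CyCoNP PD. The median was 1.60 for the nuclear and 0.61 for the cytoplasmic lncRNAs, against -0.04 for all tested genes and 0.62 for all 847 lncRNA genes, of which 26 were called higher and 18 lower.

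**Figure D4:**
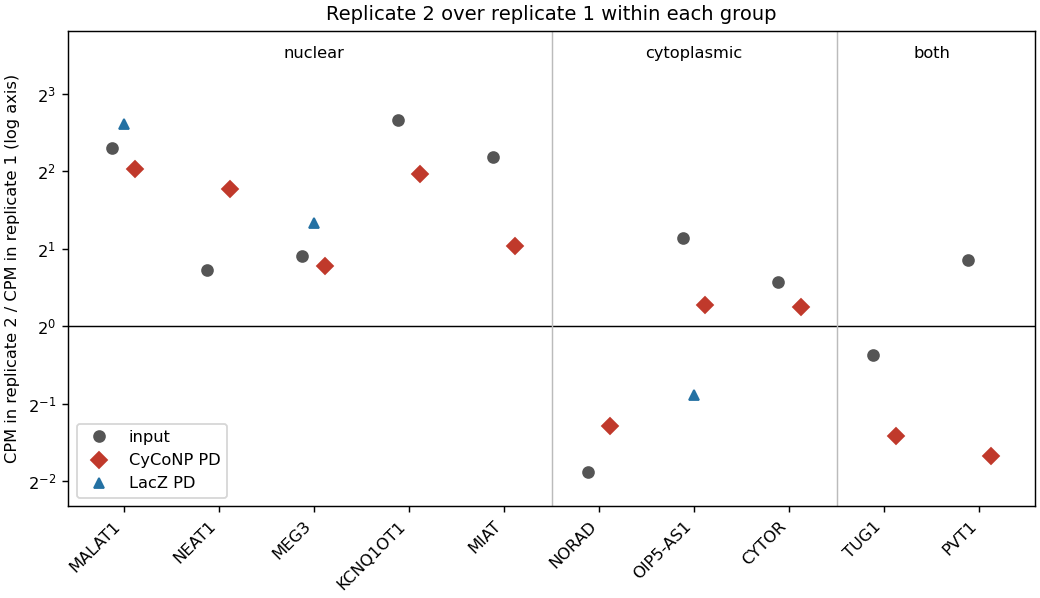
CPM in replicate 2 divided by CPM in replicate 1 (log axis) for each lncRNA within input, CyCoNP PD and, where both libraries had counts, LacZ PD. The 5 nuclear lncRNAs lie above 1 at every point, from 1.65 to 6.35, while NORAD and TUG1 lie below 1 in input and CyCoNP PD.

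Other genes moved with the replicate number too. The 5 fibroblast markers summed to 508, 327 and 477 CPM in the replicate 1 libraries of input, CyCoNP PD and LacZ PD, and to 37.9, 62.2 and 21.4 CPM in the replicate 2 libraries. COL1A1, COL1A2 and COL3A1, which encode collagens, had log2 fold changes of -4.26, -5.86 and -4.91 and were called lower in replicate 2 with edgeR. These collagens carried the sum, since LUM and DCN, both extracellular matrix proteoglycans, had 1.92 (adjusted p = 0.0994, edgeR) and 0.49 and were not called. The neuroblastoma marker CHGA, a secretory granule protein, was called higher at 1.68. The Schwann cell and epithelial markers summed to at most 7.77 and 14.3 CPM. Whether the labels' replicate numbers mark 2 cultures is not given in the sources used here beyond the term biological duplicates, and the part of these values in the lncRNA differences was not tested.

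The 3 genes most like MALAT1 over the 6 libraries, among 4315 genes with at least 100 counts, were ALDOC, RPS2 and ENSG00000264281, with Pearson correlations of log2 CPM of 0.999, 0.986 and 0.982. ALDOC encodes a glycolytic aldolase and RPS2 a ribosomal protein. For OIP5-AS1 they were ATP6V1B2, CLEC2D and IREB2 (0.988, 0.971 and 0.969), and for TUG1 they were FOCAD, PHIP and ZNF451 (0.994, 0.993 and 0.989). With 6 points that share groups, replicate numbers and depth, these are descriptions.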

How the data were processed

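The 6 Nanopore PCR-cDNA libraries fall into 3 groups of 2. After basecalling with Guppy and a length filter, the authors mapped reads to GRCh38 by minimap2 2.24-r1122 and quantified Ensembl genes in Bambu, with isoform discovery off. They deposited whole-number counts per gene without normalization, and a CPM version deposited alongside served as a check of the counts. How Bambu divides reads between overlapping or near-identical genes bears on CYTOR, and strand use was not given in the sources used here.

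Genes with at least 10 counts in total entered an edgeR 4.0.16 fit (R 4.3.3, TMM, quasi-likelihood F test, 3 groups in one fit, Benjamini-Hochberg adjustment over 12565 genes). Standard errors and 95% intervals came from the F statistic. TMM factors were 0.832 to 1.01, and 1.70 in LacZ PD 1. Alternatives were DESeq2 1.42.0, its size factors, library size alone, no count filter, filterByExpr, a replicate block, a fit of just the 2 groups in question, and each library left out. Over same-numbered libraries of different groups, deviations from group means correlated at 0.257 to 0.449 across genes, so the numbers were taken to pair libraries, from the data and not from the labels. Replicates of a group were separate libraries (chi-square per degree of freedom 4.11 to 18.4), described as biological duplicates.

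Members, classes and lists were chosen with earlier results of these data known. The text names all 10 lncRNAs, overlapping or near-identical genes, marker genes, the target, the 3 genes most correlated with the leading member of each class, and, of 36 further lncRNAs, those called or else the 2 with the smallest p per comparison. Marker genes named singly were picked with their values in view. The study's RT-qPCR and knockdown experiments were not analysed here.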

Additional observations from a re-analysis of the deposited data

How the results depend on the processing

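No lncRNA of the 10 was called in a pull-down comparison under any alternative run, the replicate block included, but 3 of 14 alternatives for CyCoNP PD against input, 5 for LacZ PD against input and 4 for CyCoNP PD against LacZ PD called no gene at all and say nothing about stability. MALAT1 was the lone call between replicate numbers in the fit reported above. The number called between replicate numbers was 2 with filterByExpr and 0 to 1 with each library left out. The nuclear minus cytoplasmic difference ranged from -0.62 to 1.53 for CyCoNP PD against input, from -0.55 to 1.82 for LacZ PD against input and from -1.56 to 1.27 for CyCoNP PD against LacZ PD with each library left out, and with the replicate block it was 0.98, 0.03 for LacZ PD against input and 0.49 for CyCoNP PD against LacZ PD. The 1.82 and the -1.56 come from fits that keep LacZ PD 1 alone, are set by 0 counts and are no bounds. Fold changes that turned sign lay near 0 or rested on single libraries, and the cause was not tested. MIAT in CyCoNP PD against input was 0.062 with the replicate block and 0.021 with DESeq2 and the block. MALAT1 in LacZ PD against input was -0.071 with no count filter, -0.0011 with only the 2 groups compared, -0.23 with the block and -0.15 with DESeq2 and the block. MALAT1 in CyCoNP PD against LacZ PD was -0.094 with DESeq2's size factors, -0.25 when scaled by library size, -0.087 in DESeq2 and -0.030 after filterByExpr, and with library size alone MEG3 was -0.032 and OIP5-AS1 -0.051. With each library left out, CyCoNP PD against input ranged over -1.20 to 1.80 for MALAT1, -1.10 to 0.62 for NEAT1, -0.32 to 2.66 for KCNQ1OT1, -0.98 to 1.36 for MIAT, -1.56 to 0.36 for NORAD, -1.40 to -0.07 for OIP5-AS1 and -0.31 to 1.43 for PVT1. LacZ PD against input ranged over -2.72 to 1.77 for MALAT1, -1.47 to 0.92 for MEG3 and -6.75 to 1.18 for CYTOR. CyCoNP PD against LacZ PD ranged over -1.23 to 2.82 for MALAT1, -0.38 to 8.64 for NEAT1, -0.21 to 2.12 for MEG3 and -0.66 to 7.29 for CYTOR, where the extremes of NEAT1 and CYTOR are set by 0 counts and are no bounds. PVT1 between replicate numbers ranged over -1.57 to 1.06. Such fits assume that a lone library varies like the other groups. With 2 libraries per group and 18870 counts in LacZ PD 1, only large changes could be detected.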

Other observations

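Of 36 further lncRNAs listed for these cells, 35 were matched and 27 tested. By the quasi-likelihood test of edgeR, 0 of the 27 were called in CyCoNP PD against input, in LacZ PD against input or in CyCoNP PD against LacZ PD (backgrounds 0.127%, 0% and 0%). At an unadjusted p under 0.05 there were 3, 4 and 4 of them, against 678, 882 and 653 of all 12565 tested genes. DESeq2 also called 0 in each (backgrounds 0.573%, 0.43% and 0.302%). Their median log2 fold changes were 0.17, -0.88 and 0.91, against -0.01, -0.68 and 0.64 for all tested genes.

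DLEU2, a host gene of tumour-suppressing microRNAs, had the smallest p in CyCoNP PD against input, with a log2 fold change of 2.81 (SE 0.81, adjusted p = 0.362, edgeR quasi-likelihood test). With the replicate number as a block it was 2.77 and called (adjusted p = 0.0016, edgeR), against a background of 2.26% of tested genes. DLEU2 also stood above 0 in LacZ PD against input, at 1.27 (adjusted p = 0.774, edgeR). In CyCoNP PD against LacZ PD it stood at 1.54 (adjusted p = 0.871, edgeR). Neither of these was called, with or without the block. CHASERR, a lncRNA beside CHD2, had the next smallest p in CyCoNP PD against input, at -1.67 (adjusted p = 0.848, edgeR). In LacZ PD against input the smallest p belonged to CHASERR, which had 0 counts in both LacZ PD libraries and was called lower with the block (adjusted p = 0.0469, edgeR), and to SNHG14, the long transcript of the imprinted SNRPN locus, at -2.65 (adjusted p = 0.587, edgeR). With the block, 0.923% of tested genes were called in that comparison.

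In CyCoNP PD against LacZ PD, MYCNOS, the antisense partner of the neuroblastoma oncogene MYCN, stood at 2.82 (adjusted p = 0.749, edgeR). With the block it was 2.87 (adjusted p = 0.0103, edgeR), where 0.772% of tested genes were called. The counts of MYCNOS were 75 and 102 in input, 211 and 348 after the CyCoNP probes and 0 and 14 after the LacZ probes. In CPM these were 104 and 129, 140 and 676, and 0 and 99.9. The 0 in LacZ PD 1 allows up to 159 CPM, more than CyCoNP PD 1 held, so the higher level rests on CyCoNP PD 2. Without strand, reads of MYCNOS and MYCN cannot be told apart where they overlap. HAND2-AS1 followed at 1.95 (adjusted p = 0.802, edgeR).

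H19, an imprinted lncRNA of fetal tissues, was detected in the replicate 1 libraries alone. It had 22, 157 and 1 counts in the replicate 1 libraries of input, CyCoNP PD and LacZ PD and 0 in every replicate 2 library, and it was called lower in replicate 2 with edgeR and with DESeq2. MEG8, a neighbour of MEG3 at the same imprinted locus, had 41 and 103 counts in input, 35 and 24 after the CyCoNP probes and 0 and 7 after the LacZ probes, and its log2 fold change between replicates of 1.26 was not called (adjusted p = 0.166, edgeR).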
